A study of Mus musculus with 40 samples.

Results

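Acute phase genes encode secreted proteins whose level in blood rises after injury or infection, and 10 of them are followed here in mouse kidney after ischaemia-reperfusion injury (IRI): blood flow to the organ is blocked for a time and then let back in. The genes are the serum amyloid A genes Saa1, Saa2 and Saa3, the fibrinogen chain genes Fga, Fgb and Fgg, haptoglobin (Hp), orosomucoid 1 (Orm1), ceruloplasmin (Cp) and pentraxin 3 (Ptx3). They were taken by name from 3 tables of read counts, on the condition that the Control counts of a gene were equal in the temporal and therapy tables. All 10 of the 10 genes named met it, out of 55782 gene names used in both tables. Every library was kidney RNA of C57bl/6-wt mice. The temporal arm held Control kidneys, whose labels give no treatment, and kidneys taken 6, 24, 48 and 72 h after reperfusion. In the therapy arm stood the same 4 Control libraries, untreated injury labelled as 6 h after reperfusion (AKI), and injured kidneys of mice that were given human MSCs (mesenchymal stromal cells) of bone marrow (BM-MSC) or umbilical cord (UC-MSC) origin. The cells were given right after reperfusion, and the labels of these groups do not give the time at which kidneys were taken. The sham arm held kidneys without surgery (sham control) and kidneys taken 24 h after surgery without IRI (sham 24 h), although the treatment field of the latter reads IRI. Each of the 10 groups had 4 libraries. The labels do not say that replicates were separate animals, so p-values measure only the spread between these libraries, which may be technical.

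The acute phase response is best known in the liver. Cytokines of the interleukin 6 family act through the receptor chain gp130 on the factor STAT3, and interleukin 1 and tumour necrosis factor act through C/EBP and NF-kB factors, and together these switch on transcription of genes such as the serum amyloids and fibrinogen. Kidney tubule cells can also transcribe fibrinogen, and Saa3 and Ptx3 are known to be made outside the liver, in macrophages, stromal and epithelial cells. In bulk tissue, more cells of a type and more RNA per cell cannot be told apart.

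Promoter sequences are shown for the fibrinogen and serum amyloid genes, because these are the gene families with 3 members each. RefSeq windows of 300 bases (build GRCm38.p6, which is not the build of the counts) were found for 8 of the 10 genes. The 250 bases before the start are printed 5′ to 3′ on the coding strand. In the fibrinogen genes, capitals mark CTGGGA, the core of the interleukin 6 response element described in fibrinogen genes, which was added to the search after the sequences were seen.
Fga, chr3:83025903-83026152, plus strand: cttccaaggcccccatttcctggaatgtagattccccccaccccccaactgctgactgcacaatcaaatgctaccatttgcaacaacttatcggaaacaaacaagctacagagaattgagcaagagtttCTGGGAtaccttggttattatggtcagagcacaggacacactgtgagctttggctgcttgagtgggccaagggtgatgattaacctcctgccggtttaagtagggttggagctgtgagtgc
Fgb, chr3:83049864-83050113, minus strand: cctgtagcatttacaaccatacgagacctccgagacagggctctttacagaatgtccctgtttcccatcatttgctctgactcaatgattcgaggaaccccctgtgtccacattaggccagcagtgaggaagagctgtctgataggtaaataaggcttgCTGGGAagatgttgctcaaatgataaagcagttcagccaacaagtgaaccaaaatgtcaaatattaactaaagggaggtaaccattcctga
Fgg, chr3:83007474-83007723, plus strand: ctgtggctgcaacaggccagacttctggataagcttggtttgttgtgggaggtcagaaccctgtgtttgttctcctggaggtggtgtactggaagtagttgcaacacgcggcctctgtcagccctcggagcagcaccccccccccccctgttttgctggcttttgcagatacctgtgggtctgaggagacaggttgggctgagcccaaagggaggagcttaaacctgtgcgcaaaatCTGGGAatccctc

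The core began 121 bases before the start in Fga, 91 in Fgb and 13 in Fgg. It is a common word: 31.78% of 32851 RefSeq promoter windows of the same length held it on either strand, among them those of Cp and Saa3. The STAT motif TTCNNNGAA was found in Fga and Fgb and in 8.298% of all windows. Serum amyloid windows are shown with matches to C/EBP motifs (TTGNNNAA or TTNNGCAA, both strands, matches may overlap) in capitals.
Saa1, chr7:46742981-46743230, minus strand: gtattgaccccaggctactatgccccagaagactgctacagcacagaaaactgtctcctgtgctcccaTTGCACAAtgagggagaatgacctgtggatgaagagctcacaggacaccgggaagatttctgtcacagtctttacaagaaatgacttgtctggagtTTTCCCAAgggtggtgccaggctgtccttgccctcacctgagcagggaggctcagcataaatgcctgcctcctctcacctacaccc
Saa2, chr7:46751583-46751832, plus strand: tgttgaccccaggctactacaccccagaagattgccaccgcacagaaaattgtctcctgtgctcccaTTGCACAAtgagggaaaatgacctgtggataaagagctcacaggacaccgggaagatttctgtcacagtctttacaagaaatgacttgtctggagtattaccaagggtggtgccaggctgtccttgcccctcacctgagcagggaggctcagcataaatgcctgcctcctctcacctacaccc
Saa3, chr7:46715677-46715926, minus strand: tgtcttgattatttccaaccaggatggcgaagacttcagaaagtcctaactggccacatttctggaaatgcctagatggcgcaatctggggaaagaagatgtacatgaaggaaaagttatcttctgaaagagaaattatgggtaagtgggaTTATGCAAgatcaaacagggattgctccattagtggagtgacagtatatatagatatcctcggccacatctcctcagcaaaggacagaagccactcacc

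A C/EBP match stood in the windows of Fga, Fgb, Saa1, Saa2, Saa3, Cp and Ptx3, and in 36.73% of all windows. The aligned windows of Saa1 and Saa2 were identical at 287 of 299 bases (95.99%), against 59.78% for Saa1 and Saa3. Whether the transcripts of these copies are as alike was not examined. If they are, reads can be lost or misassigned in counting, so the values of Saa1 and Saa2 are uncertain as separate genes.

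Library totals ranged from 14950291 to 16351992 counts in Control and from 13321255 to 17548535 at 6 h, and were lowest at 72 h, with 4642929 to 5368657. The therapy libraries held 12957283 to 18490687 counts and the sham libraries 26601247 to 37097091. The tubule markers Slc34a1 and Umod were present in every library, with Umod lowest in UC-MSC library 4 (4.71 counts-per-million). By mean rank correlation with the other libraries, IRI 48 h library 1 was closer to the 24 h group than to its own, IRI 72 h libraries 1 and 3 were closer to 48 h, and AKI library 1 was closer to Control. AKI and IRI 6 h samples carry the same library names, but their counts differ. The columns of a table had also been joined in blocks, Control with 6 h, apart from 24, 48 and 72 h, and AKI apart from Control, BM-MSC and UC-MSC. Differences across these blocks cannot be told apart from how the blocks were made.

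Saa3, the serum amyloid made in many tissues outside the liver, rose at every time after reperfusion. Its level, in counts-per-million (CPM) after scaling by the trimmed mean of M-values, was 1.08, 0.703, 0.277 and 0.838 in the 4 Control libraries. At 6 h it was 84.0, 11.6, 12.5 and 12.3 CPM, and at 24 h it was 58.6, 26.2, 111 and 97.0 CPM. It then stood at 22.4, 8.65, 0 and 5.03 CPM at 48 h and at 11.2, 8.41, 9.21 and 2.82 CPM at 72 h. No library at 6, 24 or 72 h overlapped Control, whereas 1 library at 48 h had no count. Log2 fold changes against Control (± SE) were 5.34 ± 0.93 at 6 h (adjusted p = 0.000214), 6.63 ± 0.97 at 24 h (7.07e-06), 3.599 ± 0.92 at 48 h (0.00214) and 3.42 ± 0.93 at 72 h (0.00339). All adjusted p-values come from the quasi-likelihood test of edgeR, adjusted over all tested genes by the Benjamini-Hochberg method, and a gene was called at an adjusted p under 0.05.

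The high value at 6 h came from a single library. Without IRI 6 h library 1 the change of Saa3 at 6 h was 4.04 on the log2 scale (adjusted p = 0.001), and the further rise from 6 to 24 h, 1.29 ± 0.73 with all libraries (adjusted p = 0.205), became 2.58 and was called (0.0103). Between 24 and 48 h Saa3 fell by 3.03 (SE 0.80, adjusted p = 0.00861), and without IRI 48 h library 1, the highest at 48 h, the difference was -4.07 (and 2.55 against Control). From 48 to 72 h the difference was -0.18 ± 0.80 (adjusted p = 0.934). In order of median level, 24 h stood above 6 h, 72 h, 48 h and Control, and the neighbours 24 and 6 h, and 48 and 72 h, did not differ beyond their spread. The neighbours 6 and 72 h were not compared.

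Saa1 and Saa2, the serum amyloids that are the main circulating forms, were close to the limit of counting in Control and peaked at 24 h. Saa1 had 9, 3, 0 and 2 reads in the Control libraries, 38, 57, 43 and 41 at 6 h, and 55, 65, 168 and 119 at 24 h. These are 2.34 to 3.14 CPM at 6 h and 8.16 to 12.2 CPM at 24 h, and neither group overlapped Control (0 to 0.573 CPM). The rise was called at 24 h (5.37 ± 1.40, adjusted p = 0.00338, or 6.29 without Control library 1) and not at 6 h (3.54 ± 1.31, adjusted p = 0.064). DESeq2 did call Saa1 at 6 h (adjusted p = 0.0246), as did edgeR without a filter (0.0268) and with only the groups compared (0.000682). Later values were scattered: 23, 6, 0 and 0 reads at 48 h, and 0, 0, 0 and 24 reads at 72 h. Neither passed the test.

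Saa2 had 1 read in the Control group as a whole. It had 27, 10, 3 and 4 reads at 6 h, 33, 40, 239 and 101 at 24 h, 33, 0, 0 and 0 at 48 h, and 0, 8, 0 and 0 at 72 h. Against that single Control read the ratio of group CPM was 631 at 24 h, with an exact 95% counting interval of 113 to 24976, and 40.8 at 6 h (6.95 to 1647). The interval covers counting error only. The test called Saa2 at 24 h (adjusted p = 0.000668) and at 48 h (0.0103). The call at 48 h rested on IRI 48 h library 1, since without it the log2 change was -1.27 (adjusted p = 0.641). There were 0.0698 to 0.711 Saa2 counts for each Saa1 count at 6 h and 0.6 to 1.42 at 24 h.

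The 3 fibrinogen genes, which encode the chains of the clotting protein fibrinogen, rose together at 6 h and were each higher again, above every 6 h library, in at least 3 of the 4 libraries at 24 h. By 72 h all libraries were below the Control range for Fga, and none was above it for Fgg. Fga, the alpha chain, was at 37.7, 29.2, 31.9 and 35.2 CPM in Control. It was at 296, 171, 187 and 177 CPM at 6 h and at 375, 128, 393 and 350 CPM at 24 h. All 8 of these injured libraries lay above Control. At 48 h the levels were 69.6, 10.3, 5.80 and 1.74 CPM, and at 72 h they were 5.03, 21.5, 3.802 and 11.998 CPM, so that every 72 h library and 3 of the 4 at 48 h lay below Control.

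Fgb, the beta chain, was at 4.14, 1.97, 1.66 and 2.79 CPM in Control, at 73.8, 28.6, 31.5 and 29.9 CPM at 6 h, and at 204, 80.9, 193 and 177 CPM at 24 h. The ranges of these 3 groups did not overlap. Its later levels were 26.3, 4.97, 0 and 1.56 CPM at 48 h and 7.002, 5.95, 0.400 and 6.82 CPM at 72 h. Fgg, the gamma chain, was at 27.5, 15.5, 14.2 and 22.3 CPM in Control, at 303, 161, 226 and 194 CPM at 6 h and at 651, 255, 640 and 591 CPM at 24 h. It then stood at 100.4, 10.9, 11.9 and 14.2 CPM at 48 h and at 0.875, 12.5, 6.40 and 15.998 CPM at 72 h.

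Log2 fold changes of Fga, Fgb and Fgg against Control were 2.63 ± 0.63, 3.94 ± 0.77 and 3.47 ± 0.60 at 6 h, with adjusted p-values of 0.00426, 0.000623 and 0.000205. At 24 h they were 3.22 ± 0.65, 5.94 ± 0.83 and 4.75 ± 0.64, with adjusted p-values of 0.000312, 3.54e-06 and 2.32e-06. From 6 to 24 h the rise of Fgb was called (1.9999 ± 0.67, adjusted p = 0.0285), while Fga (0.58 ± 0.60) and Fgg (1.27 ± 0.55) did not pass the test. That call was lost when any of 6 of the 8 libraries was left out (values from 1.77 to 1.96), and with DESeq2 (2.01, adjusted p = 0.0972). From 24 to 48 h the 3 genes fell, with log2 differences of -3.83, -4.32 and -3.96 (adjusted p = 0.000318, 0.000329 and 9.14e-05), and of -5.73, -6.34 and -5.45 without IRI 48 h library 1. At 72 h Fga was called lower than Control (-1.66 ± 0.67, adjusted p = 0.04), a call that was lost without IRI 72 h library 1, 3 or 4 or Control library 1, 3 or 4 and became -2.33 without IRI 72 h library 2. It was also lost with DESeq2 size factors in edgeR (-1.53, adjusted p = 0.058). Without IRI 48 h library 1, Fga was also called lower at 48 h (-2.52, adjusted p = 0.000304).

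**Figure D1:**
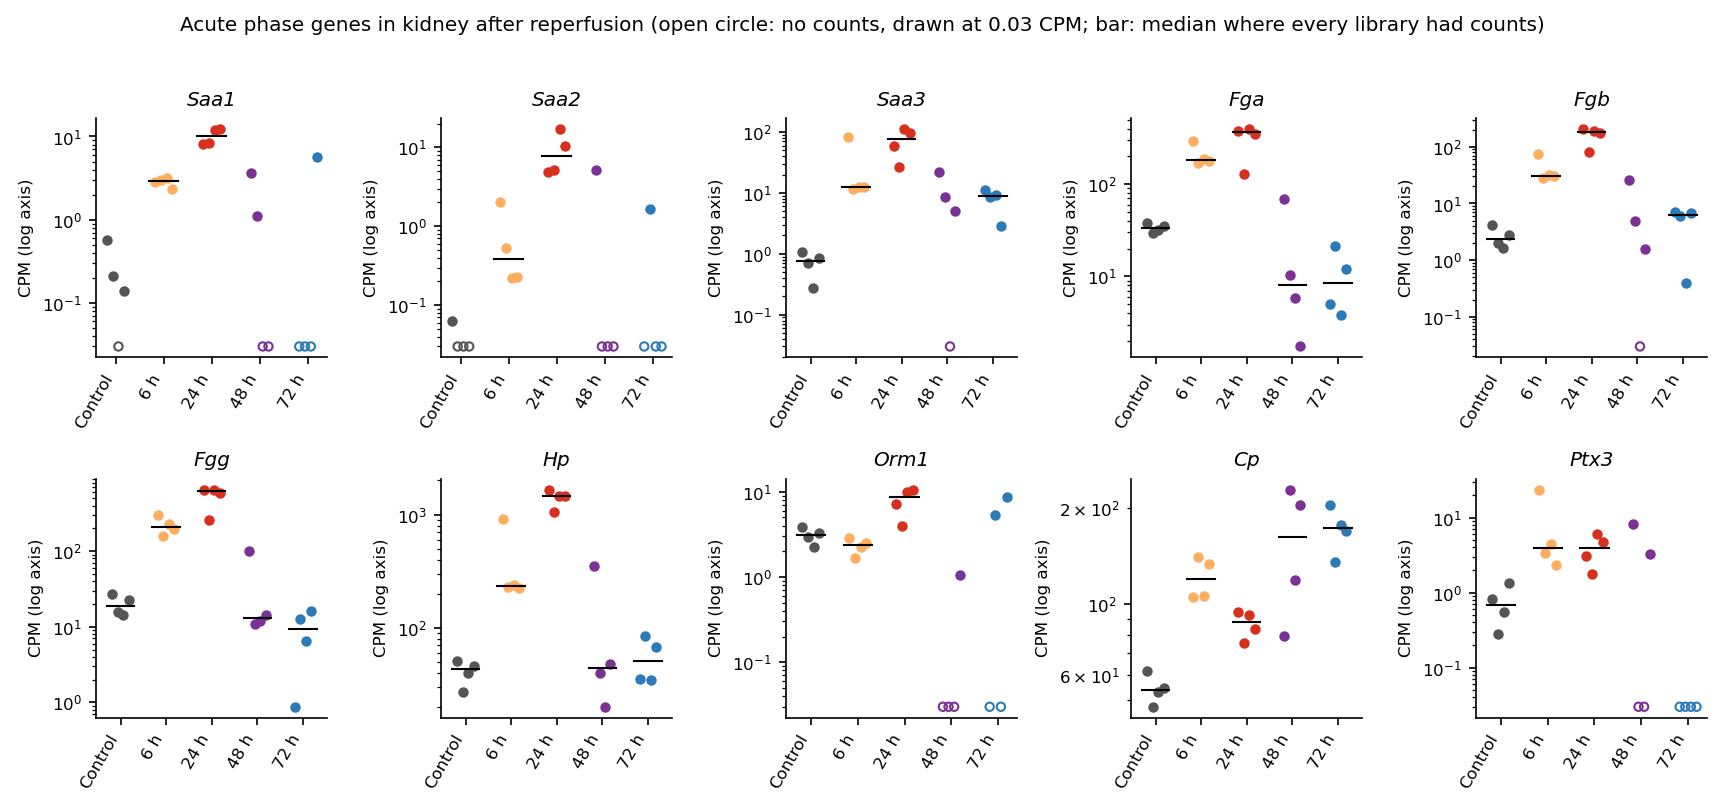
Level of the 10 acute phase genes in counts-per-million (log axis) in each of the 4 libraries of Control and of 6, 24, 48 and 72 h after reperfusion; open circles are libraries with no count and bars are medians. Most genes peak at 24 h, Cp does not, and IRI 48 h library 1, the leftmost point of its group, lies apart from the other 3.

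The 3 chains did not change in proportion. There were 0.0521 to 0.110 Fgb counts for each Fga count in Control, 0.167 to 0.249 at 6 h and 0.491 to 0.632 at 24 h. For Fgg the ratio to Fga was 0.445 to 0.728 in Control, 0.937 to 1.21 at 6 h and 1.63 to 1.99 at 24 h. In both ratios the 3 groups had separate ranges. The later ranges were wide, with Fgb to Fga at 0 to 0.9 at 48 h and 0.105 to 1.39 at 72 h. In the sham arm, where reads were few, Fgb to Fga was 0 to 0.178 in sham control and 0 to 0.574 at sham 24 h. The sham 24 h range thus reached into that of 24 h after IRI. For Fgg to Fga the sham ranges were 0.348 to 0.687 and 0.3 to 1.10. Since the ratio of the same pair is followed, transcript length does not enter the change. These ratios were computed after the values were seen and are given as a description.

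**Figure D2:**
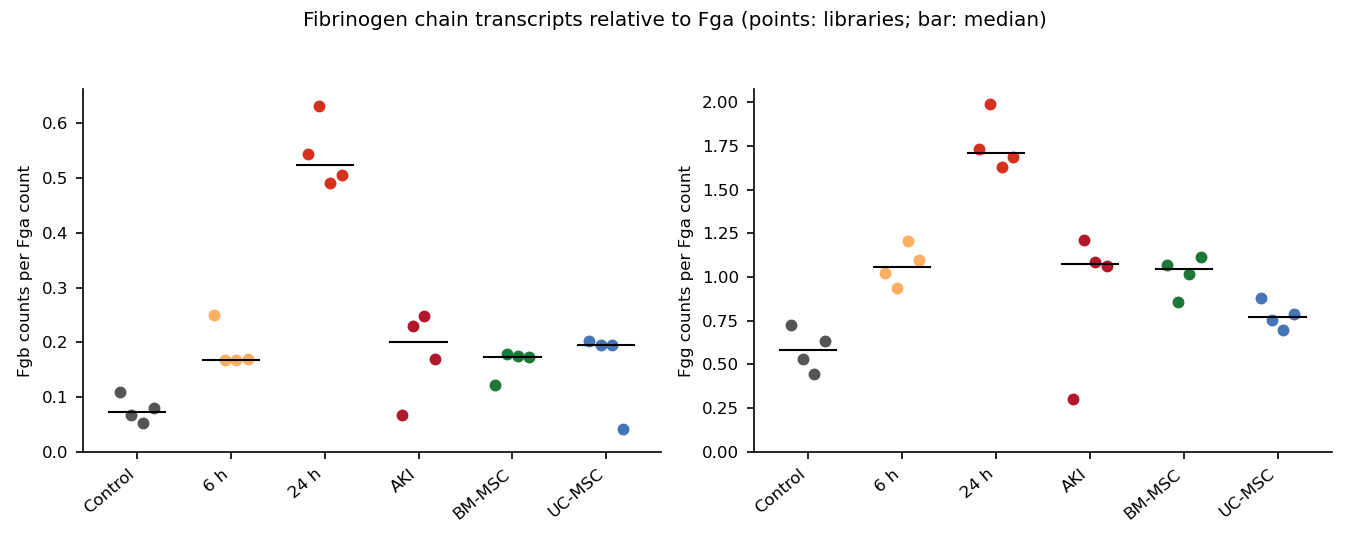
Fgb and Fgg counts per Fga count in each library (points) with the group median (bar), for Control, 6 and 24 h and for the AKI, BM-MSC and UC-MSC groups. Both ratios step up from Control to 6 h and to 24 h, and AKI library 1 lies within the Control range for Fgb and UC-MSC library 4 just below it.

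Haptoglobin, which binds free haemoglobin, also peaked at 24 h. Hp stood at 50.8, 27.3, 39.7 and 46.5 CPM in Control, at 909, 232, 239 and 225 CPM at 6 h, and at 1663, 1059, 1449 and 1447 CPM at 24 h. The 3 groups had separate ranges. At 48 h the levels were 355, 40.3, 20.2 and 48.2 CPM, and at 72 h they were 35.4, 85.7, 35.0 and 67.5 CPM. Hp rose by 3.29 ± 0.65 at 6 h on the log2 scale (adjusted p = 0.000765, or 2.50 without IRI 6 h library 1) and by 5.10 ± 0.71 at 24 h (3.68e-06). The rise from 6 to 24 h was 1.81 ± 0.61 (adjusted p = 0.0297), or 2.59 without IRI 6 h library 1, and lost its call without IRI 6 h library 2, 3 or 4 or IRI 24 h library 1, 3 or 4 (1.60 to 1.79). The call at 48 h (1.497 ± 0.62, adjusted p = 0.0452) rested on IRI 48 h library 1, without which the change was -0.21 (0.715), and was lost without any single Control library and with only the groups compared (1.57, adjusted p = 0.101). From 24 to 48 h Hp fell by 3.598 (adjusted p = 0.000452), and the difference was -5.30 without IRI 48 h library 1. At 72 h the difference from Control was 0.44 ± 0.62 (adjusted p = 0.559).

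Orm1, a plasma carrier protein gene, was at 3.82, 2.95, 2.21 and 3.28 CPM in Control and did not pass the test at 6 h (1.65 to 2.85 CPM, log2 -0.40 ± 0.99) or at 24 h. Its 24 h levels of 7.12, 3.96, 9.98 and 10.6 CPM lay above every Control library, and with only the groups compared the change was called (1.41, adjusted p = 0.000556). At 48 h Orm1 had no read in 3 libraries and 6 reads in library 4, and it was called lower than Control (-3.56 ± 1.23, adjusted p = 0.0177) and lower than at 24 h (-4.93 ± 1.26, adjusted p = 0.00708). Without IRI 48 h library 4 the group has no read and the fitted values, -8.003 and -9.33, depend on the prior count. At 72 h, libraries 1 and 3 had no read and libraries 2 and 4 had 5.33 and 8.70 CPM. The same libraries 2 and 4 held the hepatocyte gene Alb at 47.2 and 41.4 CPM and Ahsg at 17.8 and 13.2 CPM. In 72 h libraries 1 and 3 Alb was at 5.47 and 0 CPM and Ahsg had no read. The part of hepatocyte RNA in these levels was not tested. The summed level of 22 hepatocyte markers was 276 to 323 CPM in Control libraries, 31.5 to 56.0 CPM at 24 h and 58.2 to 235 CPM at 72 h. Of the 12 tested, 1 was called higher and 4 lower at 72 h, beside 26.7% and 29.6% of all genes. Of the 12 tested, 4 were called lower at 24 h and 0 higher, beside 6986 of all 16653 genes called, 3627 of them higher. Serpina1d alone made up a mean of 161 CPM of that sum in Control and 7.76 CPM at 24 h.

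Adipocyte genes were also highest at 24 h. The summed level of 10 adipocyte markers was 478 to 704 CPM in Control, 527 to 906 CPM at 6 h, 1881 to 3715 CPM at 24 h, 164 to 921 CPM at 48 h and 439 to 520 CPM at 72 h. Of the 10, 5 were called higher at 24 h (21.8% of all genes) and 9 were called lower at 48 h than at 24 h (12.1%). Adipoq, the adipocyte hormone adiponectin, was at 134, 41.4, 106 and 94.6 CPM at 24 h and at 26.4, 3.31, 2.63 and 2.60 CPM at 48 h. IRI 24 h library 2, the lowest of its group for Adipoq, was also the lowest for Saa3, all 3 fibrinogen chains, Hp and Orm1. Neutrophil markers (14 genes, 4 of them with no read in Control) summed to 4.78 to 7.82 CPM in Control, to 566, 75.2, 72.8 and 66.8 CPM at 6 h and to 29.8 to 68.0 CPM at 24 h. IRI 6 h library 1 was the highest of its group for these and for Saa3, Fga, Fgb, Fgg, Hp and Ptx3. It was also the highest for the tubular injury gene Krt20 (618 CPM, against 97.2 to 126 CPM). For the tubule gene Slc34a1 it was the lowest (689 CPM, against 2098 to 2533 CPM). Tubular injury markers (15 genes) summed to 1598 to 2272 CPM in Control, 15078 to 22571 CPM at 6 h and 19044 to 29824 CPM at 24 h. Of these genes, 15, 14, 13 and 13 were called higher at 6, 24, 48 and 72 h, beside 10.3%, 21.8%, 26.9% and 26.7% of all genes. The part of adipocytes, neutrophils or injured tubule cells in the acute phase values was not tested.

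Cp, the copper-carrying ferroxidase ceruloplasmin, had another time course. Its levels were 61.6, 47.6, 52.8 and 54.7 CPM in Control and 105, 140, 106 and 133 CPM at 6 h. They were 94.5, 75.6, 92.4 and 83.3 CPM at 24 h, 79.6, 228, 119 and 204 CPM at 48 h, and 204, 135, 177 and 169 CPM at 72 h. All 16 injured libraries lay above Control. Log2 changes against Control were 1.16 ± 0.23 at 6 h (adjusted p = 0.000673), 0.67 ± 0.23 at 24 h (0.0196), 1.54 ± 0.23 at 48 h (6.09e-06) and 1.66 ± 0.23 at 72 h (2.07e-06). Without Control library 2 or IRI 24 h library 1 or 3 the call at 24 h was lost (0.59 to 0.63). Cp was the only one of the 10 genes called higher at 48 h than at 24 h (0.87 ± 0.23, adjusted p = 0.00842), and that call was lost without IRI 48 h library 2 (0.63, adjusted p = 0.051).

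Ptx3, a pattern recognition protein of the long pentraxin family, had its highest level in IRI 6 h library 1, while the other 6 h libraries lay within the 24 h range. It was at 0.828, 0.281, 0.553 and 1.33 CPM in Control, at 23.7, 3.35, 4.45 and 2.34 CPM at 6 h and at 3.12, 1.79, 6.01 and 4.72 CPM at 24 h. Both injured groups lay above Control. The 6 h rise was 3.48 ± 1.17 (adjusted p = 0.0432), but without IRI 6 h library 1 it was 2.16 (0.306), and it was not called without IRI 6 h library 3 or any single Control library. At 24 h the change of 2.38 ± 1.13 did not pass the test (adjusted p = 0.1), although it did with only the groups compared (0.00025). Ptx3 had 52, 0, 0 and 19 reads at 48 h and none in any library at 72 h, against 44 reads in the Control group. With a floor of 3 reads over the group, this made Ptx3 at least 4.67-fold lower at 72 h than in Control and at least 17.6-fold lower than at 48 h. The calls at 72 h (adjusted p = 0.0361 against Control and 0.039 against 48 h) were each lost in 5 of the 8 fits that left out a library: any of the 4 at 72 h, and Control library 4 or IRI 48 h library 1.

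Counted over the 10 genes, 7 were called higher at 6 h against 10.3% of the 16653 genes tested. At 24 h 8 were called higher, against 21.8% of all genes. At 48 h 4 were called higher and 1 lower (26.9% and 26.8% of all genes), and at 72 h 2 were called higher and 2 lower (26.7% and 29.6%), which is near the background. The median log2 change over the 10 genes was 3.47, 4.92, 1.58 and 0.68 at 6, 24, 48 and 72 h, beside medians over all genes of -0.07, 0.05, 0.01 and -0.04. The 4 contrasts share the Control libraries. From 6 to 24 h, 3 of the 10 were called higher (14.9% of all genes). From 24 to 48 h, 6 were called lower and 1 higher (12.1% and 8.98%), and from 48 to 72 h, 1 was called lower (3.63%). Of these steps, 6 h against Control, 48 against 24 h and 72 against 48 h lie within a joined block.

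**Figure D3:**
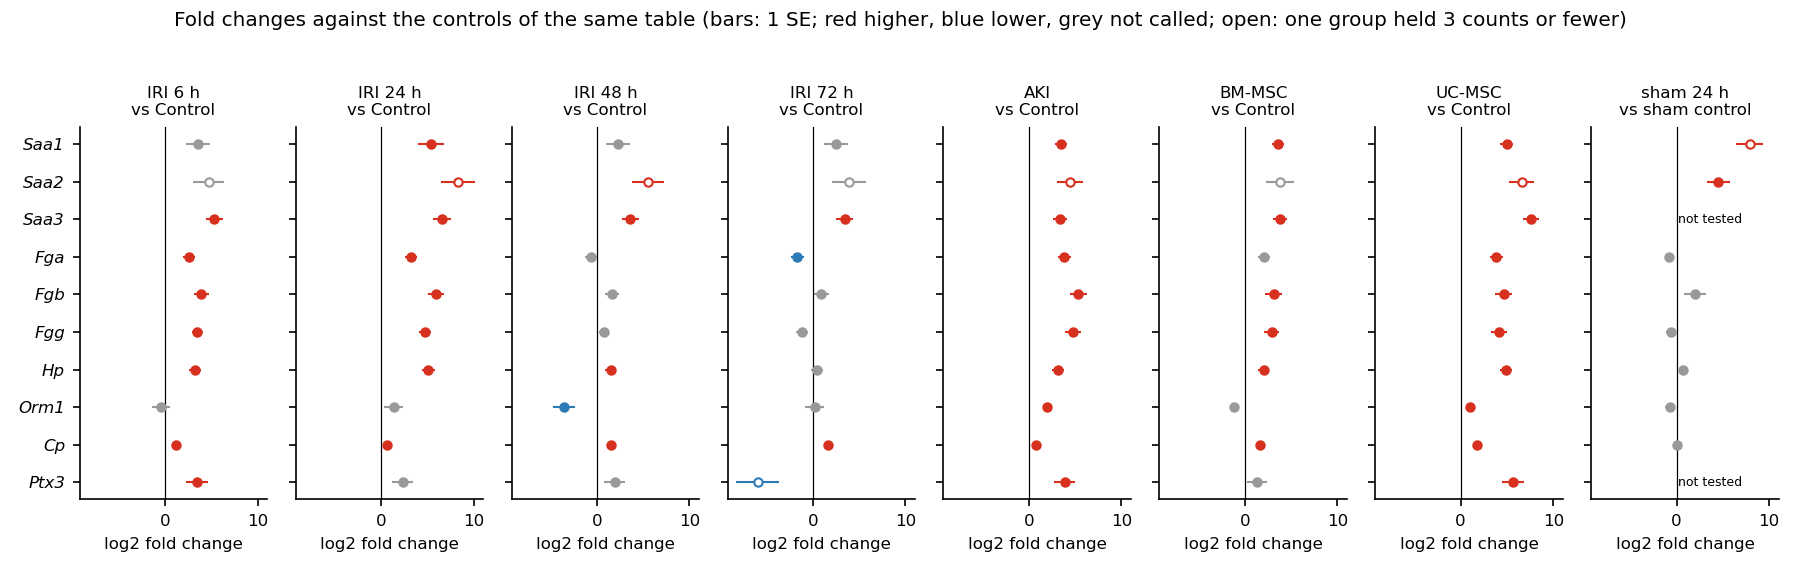
Log2 fold change (point) ± 1 SE (bar) of each acute phase gene against the controls of its own table, in 8 comparisons; red is called higher, blue called lower, grey not called, and open points mark a group with 3 reads or fewer. The serum amyloid, fibrinogen and Hp points lie right of 0 at 6 and 24 h and in the therapy arm, while after sham surgery Saa1 and Saa2 alone were called.

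After surgery without ischaemia, Saa1 and Saa2 were called higher by edgeR and the other 6 members tested were not. DESeq2 gave no adjusted p for Saa1 or Saa2. Saa1 had no read in any of the 4 sham control libraries and 24, 28, 33 and 28 reads (0.884 to 1.11 CPM) at sham 24 h, at least 40.8-fold higher with a floor of 3 reads (adjusted p = 0.0014). Saa2 went from 0, 0, 0 and 6 reads to 14, 46, 51 and 31 reads (4.51 ± 1.24, adjusted p = 0.0153). That call was lost without sham control library 1, 2 or 3 (4.06 to 4.14), and the fitted value without library 4 was 8.17. Fga went from 8.23, 4.85, 6.89 and 4.33 CPM to 4.64, 1.93, 3.30 and 4.38 CPM (-0.78 ± 0.32, adjusted p = 0.102). Hp went from 35.9, 10.5, 31.3 and 24.7 CPM to 27.0, 30.8, 45.8 and 62.3 CPM (0.69 ± 0.30, adjusted p = 0.117), and it was called when no filter was used (0.67, adjusted p = 1.44e-05). Saa3 and Ptx3 had too few reads to be tested. Saa3 was at 0 to 0.193 CPM in sham control and at 0.152 to 0.695 CPM at sham 24 h. Ptx3 fell from 40 reads to 2 reads in the group, a ratio of 0.0541 with a counting interval of 0.00634 to 0.209. So 2 of 8 tested members were called higher, against 7.7% of all genes.

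The Alb level was 1.93 to 4.66 CPM in sham control and 6.28 to 9.83 CPM at sham 24 h, and both Alb (1.04, adjusted p = 0.0164) and Ahsg (3.97, 0.0204) were called higher. Of 16 hepatocyte markers tested, however, 4 were called higher and 5 lower. Of 11 adipocyte markers, 8 were called lower and 0 higher. Over all 17781 genes tested, 3703 were called in either direction, 1369 of them higher. The part of these cell types in the sham values was not tested.

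A fit of the temporal and sham arms together asked whether the change at 24 h after IRI exceeded that at 24 h after sham surgery, each against its own controls. Of the 8 genes that had also been tested in the sham arm alone, it did for Fga, Fgb, Fgg and Hp, against 13.4% of all genes. The differences of log2 changes were 3.99 ± 0.80 for Fga (adjusted p = 0.000287), 3.999 ± 1.27 for Fgb (0.0196), 5.38 ± 0.79 for Fgg (4.58e-06), and 4.40 ± 0.81 for Hp (0.000111). Saa3 and Ptx3 had too few reads for the sham arm alone and passed the filter of the joint fit with the IRI libraries, so their values of 4.40 ± 1.60 (adjusted p = 0.0423) and 6.12 ± 1.70 (0.00798) are given as a description. That of Ptx3 rests on 2 reads at sham 24 h. Saa1 did not differ beyond its error (-1.87 ± 1.38, adjusted p = 0.376), nor did Saa2 (4.03 ± 2.25), Orm1 (2.07 ± 1.23) or Cp (0.59 ± 0.32). The Saa1 value rests on a sham control group without reads and depends on the prior count. The Saa3 call was lost when any of 11 of the 16 libraries was left out (3.88 to 4.61), and the Fgb call without sham control library 4 (3.30). Without sham 24 h library 4 the Ptx3 difference was 7.998. The 2 arms come from separate tables, and their difference cannot be told apart from the arm.

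In the therapy arm the members were followed in untreated injury and in injury with MSCs. All 10 genes were called higher in AKI than in Control, against 20% of 16623 genes. In BM-MSC kidneys 6 were called higher than in Control (6.56% of all genes), and in UC-MSC kidneys all 10 were (20.4%). Median log2 changes over the 10 genes were 3.66, 2.50 and 4.76, beside all-gene medians of 0.06, 0.04 and 0.09. These contrasts share the Control libraries, and AKI stands in another joined block than Control.

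Saa3 separated UC-MSC kidneys from the other groups of the therapy arm. It was at 8.36, 10.4, 6.92 and 3.31 CPM in AKI, at 3.26, 4.10, 14.2 and 16.5 CPM in BM-MSC, and at 101, 77.7, 326 and 32.9 CPM in UC-MSC. Every UC-MSC library lay above every other library of the arm. Untreated injury at 24 h, scaled within the temporal arm, had an overlapping range of 26.2 to 111 CPM. The labels of the MSC groups give no time. Saa3 was 4.21 ± 0.68 higher on the log2 scale in UC-MSC than in AKI (adjusted p = 0.000232) and 3.82 ± 0.67 higher than in BM-MSC (0.00186). Without UC-MSC library 3 these values were 3.29 and 2.89, and both were still called. BM-MSC and AKI did not differ beyond the spread (0.40 ± 0.62, adjusted p = 0.653).

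Saa1 was at 1.12, 3.20, 4.10 and 1.60 CPM in AKI, 3.37, 1.99, 2.48 and 2.98 CPM in BM-MSC and 3.73, 3.28, 12.1 and 9.71 CPM in UC-MSC. It was called higher in UC-MSC than in AKI (1.52 ± 0.56, adjusted p = 0.0402), but not without AKI library 1, 2 or 4 or UC-MSC library 3 or 4 (1.15 to 1.66), nor with only the groups compared (adjusted p = 0.0774). Against BM-MSC the difference was 1.41 ± 0.56 (adjusted p = 0.0831). Saa2 had 18, 0, 0 and 13 reads in AKI, 6, 3, 10 and 4 in BM-MSC and 48, 14, 73 and 8 in UC-MSC. It was called higher in UC-MSC than in BM-MSC (2.80 ± 0.94, adjusted p = 0.0443), a call lost in 7 of the 8 fits that left out a library (2.17 to 3.21).

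Fibrinogen was uneven within AKI. Fga was at 26.1, 487, 936 and 343 CPM in the 4 AKI libraries, Fgb at 1.76, 112, 232 and 58.3 CPM, and Fgg at 7.93, 590, 1015 and 364 CPM. AKI library 1 was thus within the Control range for Fgb and below it for Fga and Fgg, and it was the library closer to Control over all genes. It was not low for every member: Hp was at 252, 525, 299 and 257 CPM in AKI, and Ptx3 at 36.0, 3.01, 0.897 and 1.60 CPM with its highest level in library 1. The log2 change of Ptx3 in AKI against Control, 3.88 ± 1.12 (adjusted p = 0.0138), was 1.36 without that library (0.186). Fga, Fgb and Fgg were higher in AKI than in Control by 3.85 ± 0.71, 5.36 ± 0.95 and 4.74 ± 0.88 on the log2 scale, or by 3.20, 4.54 and 4.12 without AKI library 3.

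BM-MSC kidneys held even and intermediate fibrinogen levels. Fga was at 163, 121, 138 and 115 CPM, Fgb at 20.1, 21.5, 24.2 and 19.9 CPM and Fgg at 175, 104, 141 and 128 CPM. All 12 values lay above Control and below those of AKI libraries 2, 3 and 4. Against AKI, Fgb was called lower (-2.24 ± 0.80, adjusted p = 0.0411), Fga was at -1.74 ± 0.65 (0.0504) and Fgg at -1.85 ± 0.78 (0.0763). Leaving out AKI library 1 brought all 3 past the test, with Fga at -2.12 and Fgg at -2.26, whereas the Fgb call was lost without AKI library 2 or 3 or any BM-MSC library (-1.42 to -2.29), with only the groups compared (adjusted p = 0.103) and with the IRI 6 h libraries in place of AKI (-0.93, adjusted p = 0.203). Against Control, Fgb (3.12 ± 0.88, adjusted p = 0.0371) and Fgg (2.89 ± 0.81, 0.0367) were called higher, and these calls were lost in 8 and 7 of the 8 fits that left out a library.

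UC-MSC kidneys had Fga at 112, 549, 452 and 650 CPM, Fgb at 22.7, 107, 88.5 and 27.4 CPM and Fgg at 98.3, 414, 316 and 513 CPM. These ranges overlapped those of AKI, and the differences were -0.02 ± 0.63, -0.72 ± 0.77 and -0.56 ± 0.75. With the IRI 6 h libraries in place of AKI, Fga was called higher in UC-MSC (1.10, adjusted p = 0.0378). Fgb (0.61, adjusted p = 0.328) and Fgg (0.62, 0.235) were then not called. In UC-MSC library 4 there were 0.0422 Fgb counts per Fga count, against 0.195 to 0.203 in the other 3, and that library was also the one with the lowest Umod level. Against BM-MSC the 3 chains were at 1.71 ± 0.65, 1.52 ± 0.79 and 1.29 ± 0.76, none of them past the test.

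**Figure D4:**
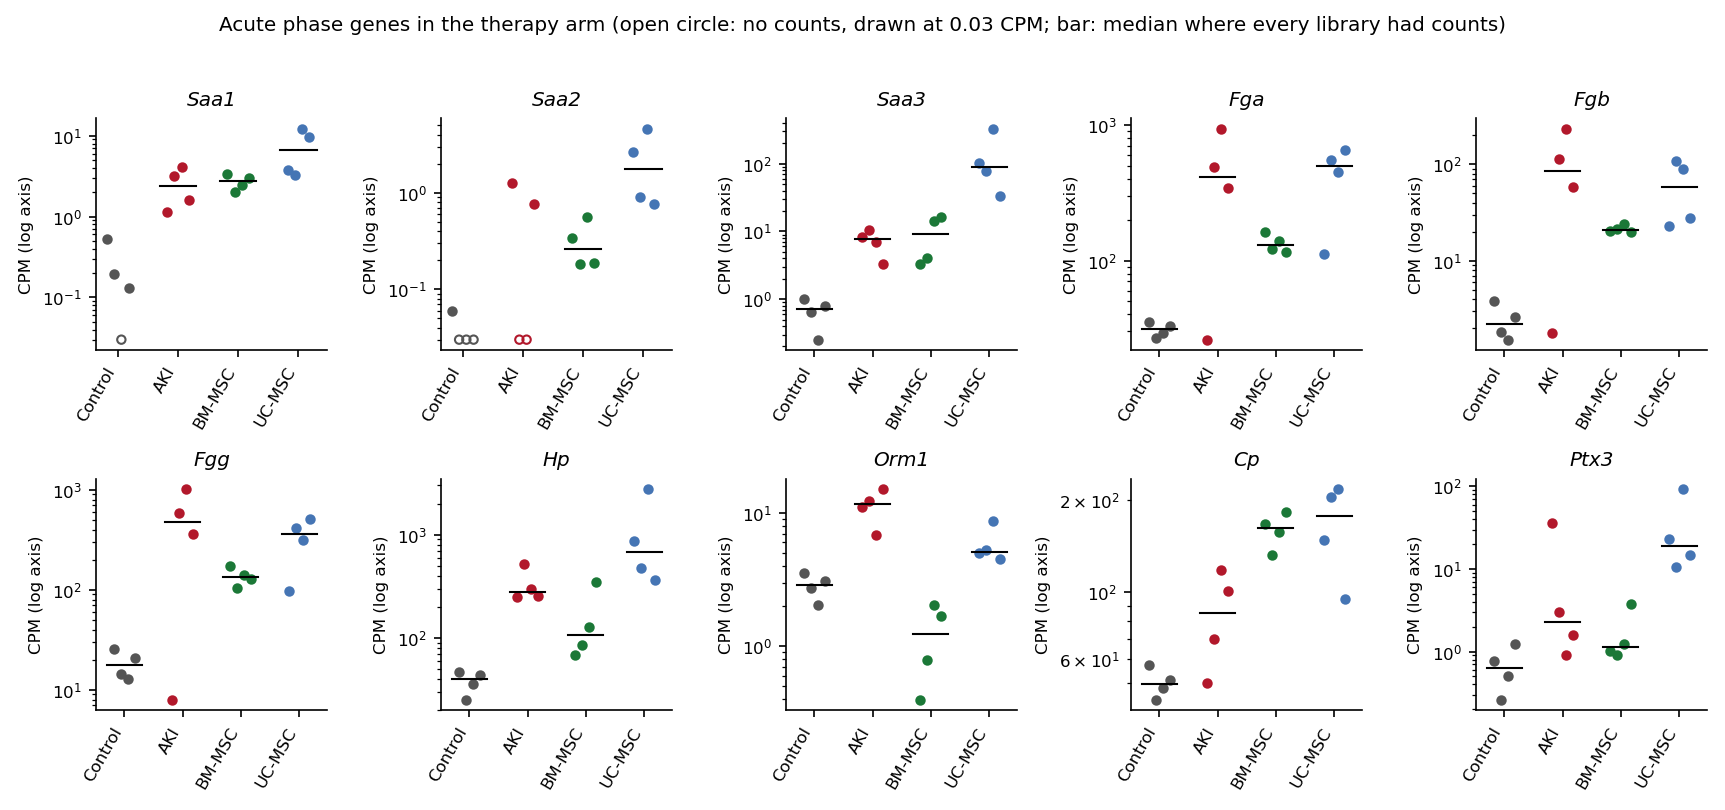
Level of the 10 acute phase genes in counts-per-million (log axis) in each of the 4 libraries of Control, AKI, BM-MSC and UC-MSC; open circles are libraries with no count and bars are medians. Saa3 is highest in the UC-MSC libraries. Orm1 is lower in BM-MSC than in AKI and UC-MSC, and its BM-MSC range overlaps Control. AKI library 1, the leftmost point of its group, is within or below the Control range for Fga, Fgb and Fgg.

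Within the therapy arm, Hp reached its highest levels in UC-MSC, at 878, 477, 2757 and 366 CPM, against 252 to 525 CPM in AKI and 68.9, 86.6, 129 and 349 CPM in BM-MSC. Hp was called higher in UC-MSC than in BM-MSC (2.82 ± 0.61, adjusted p = 0.00542, 1.86 without UC-MSC library 3 and 3.52 without BM-MSC library 4). Against AKI the rise of 1.75 ± 0.59 (adjusted p = 0.0261) became 0.79 without UC-MSC library 3 (0.21) and was also lost without AKI library 3 or 4 (1.70 and 1.64), with only the groups compared (adjusted p = 0.062) and with the IRI 6 h libraries in place of AKI (1.49, adjusted p = 0.104). In BM-MSC against Control, Hp was at 2.06 ± 0.60 (adjusted p = 0.0415), and without BM-MSC library 4 at 1.31 (0.236). That call was lost without any single Control library or BM-MSC library 3 as well.

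Orm1 was lower in BM-MSC kidneys than in AKI kidneys, which stand in another joined block. It was at 11.0, 12.3, 6.79 and 15.1 CPM in AKI, at 0.394, 0.783, 2.03 and 1.68 CPM in BM-MSC and at 4.99, 5.27, 8.67 and 4.52 CPM in UC-MSC. The difference of BM-MSC from AKI was -3.19 ± 0.43 (adjusted p = 7.84e-05) with separate ranges, and it was called in each of the 8 fits that left out a library. With the IRI 6 h libraries in place of AKI the difference was -0.91 and was not called (adjusted p = 0.161), and UC-MSC was then 1.35 higher (0.0179). UC-MSC was 2.25 ± 0.42 above BM-MSC (adjusted p = 0.00249), also with separate ranges. Against Control (2.02 to 3.56 CPM), BM-MSC was at -1.21 ± 0.41 (adjusted p = 0.0802) and UC-MSC at 1.04 ± 0.40 (0.0486), the latter call being lost in 7 of the 8 fits that left out a library, with DESeq2 size factors (adjusted p = 0.0523) and without a filter (0.0775).

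Among the injured groups of the arm, adipocyte markers were, like Orm1, lowest in BM-MSC kidneys, whose ranges overlapped Control. The summed level of 10 adipocyte genes was 1376 to 2343 CPM in AKI, 269 to 551 CPM in BM-MSC, 938 to 2559 CPM in UC-MSC and 436 to 656 CPM in Control. All 10 were called higher in AKI than in Control (20% of all genes) and all 10 were called lower in BM-MSC than in AKI (17.1%). AKI stands in another joined block, and IRI 6 h libraries, scaled within the temporal arm, summed to 527 to 906 CPM. In BM-MSC against Control 2 of the 10 were called lower and 0 higher, beside 1484 of 16623 genes called, 1091 of them higher. Adipoq was at 84.1, 117, 81.5 and 162 CPM in AKI and at 20.01, 25.4, 30.5 and 35.4 CPM in BM-MSC. Neutrophil markers were summed over 14 genes. They stood at 7.33 to 36.6 CPM in AKI, at 26.2, 19.0, 31.8 and 450.5 CPM in BM-MSC and at 714, 445, 519 and 70.7 CPM in UC-MSC. BM-MSC library 4, the highest of its group for neutrophil markers, was also the highest for Saa3, Hp and Ptx3, and UC-MSC library 4, the lowest for them, was the lowest for Saa3 and Hp. Other ranks differed. UC-MSC library 3 was the highest of its group for Saa3, Hp and Ptx3, but library 1 was the highest for neutrophil markers. Ptx3 was lowest in UC-MSC library 2. The part of adipocytes or neutrophils in the acute phase values was not tested.

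**Figure D5:**
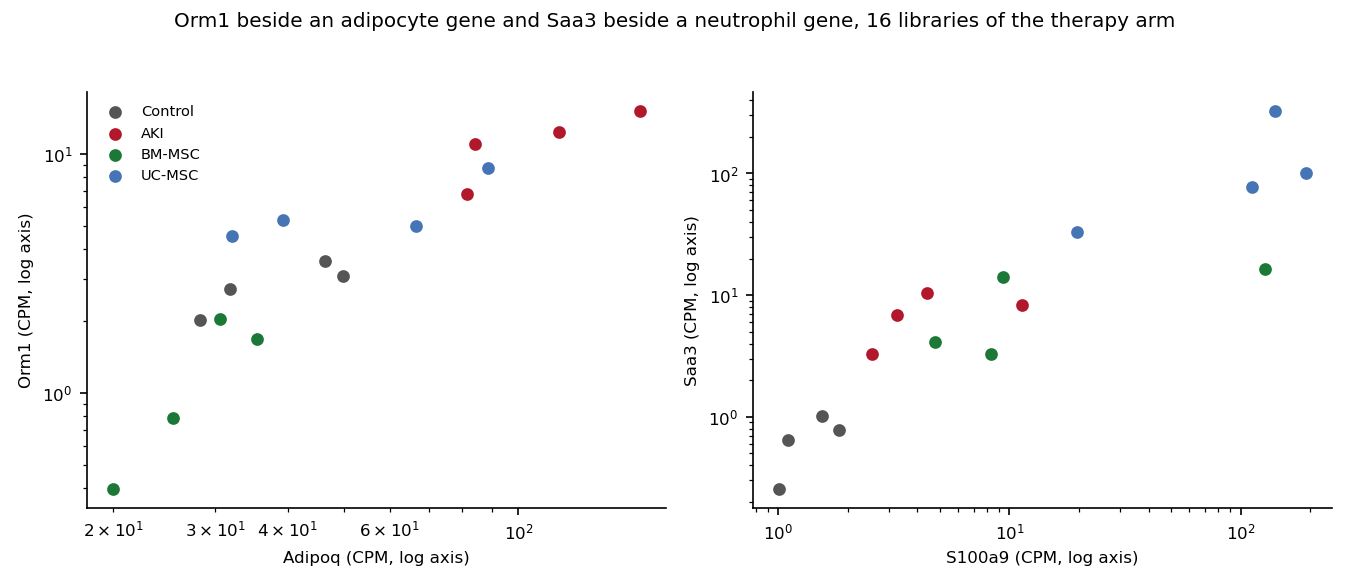
Left, Orm1 against the adipocyte gene Adipoq, and right, Saa3 against the neutrophil gene S100a9, in counts-per-million on log axes, 1 point for each of the 16 libraries of the therapy arm coloured by group. BM-MSC libraries are at the lower left for Orm1 and Adipoq, beside some of Control, and UC-MSC libraries 1 to 3 are at the upper right for Saa3 and S100a9.

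Cp was higher with either kind of MSC than in untreated injury. It was at 49.9, 69.7, 118 and 101 CPM in AKI, 167, 132, 157 and 183 CPM in BM-MSC and 148, 206, 217 and 94.8 CPM in UC-MSC. The differences from AKI were 0.92 ± 0.26 for BM-MSC (adjusted p = 0.0134) and 0.98 ± 0.26 for UC-MSC (0.00757), and the MSC groups did not differ beyond their spread (0.06 ± 0.26). With the IRI 6 h libraries in place of AKI neither was called (0.40, adjusted p = 0.233, and 0.47, 0.11), and with only the groups compared the UC-MSC call was lost (0.97, adjusted p = 0.0586). The rise of Cp in AKI over Control, 0.75 ± 0.26 (adjusted p = 0.0341), was lost without AKI library 3 or 4 or Control library 2, 3 or 4 (0.55 to 0.76). Ptx3 was at 22.9, 10.5, 92.2 and 14.7 CPM in UC-MSC and at 1.01, 0.904, 1.24 and 3.78 CPM in BM-MSC. It was 4.31 ± 1.07 higher in UC-MSC than in BM-MSC (adjusted p = 0.0107, 3.19 without UC-MSC library 3 and 5.01 without BM-MSC library 4). Against AKI the difference of 1.77 ± 0.94 was not called, and without AKI library 1 it was 4.24 (0.000397).

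Counted over the 10 genes, BM-MSC kidneys had 2 called lower and 1 higher than AKI (17.1% and 16.3% of all genes), and UC-MSC kidneys had 4 called higher than AKI (20.3%). Between the MSC groups, 5 genes were called higher in UC-MSC than in BM-MSC, against 10.0% of all genes: Saa2, Saa3, Hp, Orm1 and Ptx3. This comparison lies within a joined block. The AKI libraries carry the 6 h label, and with the IRI 6 h libraries in their place, none of the 10 was called in BM-MSC.

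The cytokines and receptors that act upstream of these genes were taken from a list of 19, of which 13 were tested in the temporal arm, Il6, Il1b and Il1a being left out with their disagreeing Control counts. At 6, 24, 48 and 72 h, 7, 6, 4 and 4 were called higher and 2, 3, 3 and 6 lower. Of all genes, 10.3%, 21.8%, 26.9% and 26.7% were called higher at these times, and 26.8% and 29.6% lower at 48 and 72 h. At 6 and 24 h, 3139 and 6986 of 16653 genes were called in either direction, 1722 and 3627 of them higher. Lif, a cytokine of the interleukin 6 family, had 0.603 ± 0.497 CPM (mean ± SD, n = 4) in Control, 18.9 ± 14.5 CPM at 6 h and 16.2 ± 5.48 CPM at 72 h. Clcf1, another cytokine of that family, had 3.32 ± 1.37 CPM in Control, 24.4 ± 8.83 CPM at 6 h and 163 ± 25.7 CPM at 72 h. Osm, oncostatin M, was called higher in UC-MSC than in AKI (4.22, adjusted p = 0.00609) and than in BM-MSC (3.52, 0.024).

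Of 23 genes of the STAT3, C/EBP and NF-kB response, 13 were called higher and 2 lower at 6 h (10.3% of all genes higher). At 24 h 9 were higher and 6 lower (21.8% higher). Over all 16653 genes, 3139 and 6986 were called in either direction at 6 and 24 h, 1722 and 3627 of them higher. At 48 h 11 were higher and 6 lower (26.9% and 26.8% of all genes), and at 72 h 9 and 8 (26.7% and 29.6%). Socs3, a feedback inhibitor induced by STAT3, was at 5.35 ± 1.83 CPM in Control, 71.1 ± 31.4 CPM at 6 h, 92.0 ± 35.0 CPM at 24 h, 114 ± 17.4 CPM at 48 h and 87.5 ± 20.02 CPM at 72 h. Its level was thus above Control at the late times at which Fga and Fgg were at or below Control in most libraries. Whether the 2 are linked was not tested. For Nfkbiz, a regulator of NF-kB targets, the Control level was 4.94 ± 1.18 CPM and the 72 h level 91.8 ± 24.4 CPM. The liver and tubule factor Hnf4a was called lower at 24 h (-2.49), 48 h (-3.34) and 72 h (-4.52). In UC-MSC against BM-MSC, 8 of the 23 were called higher (10.0% of all genes) and 2 lower. Over all 16623 genes, 3401 were called there in either direction, 1668 of them higher. Cebpb (1.84, adjusted p = 0.000901) and Cebpd (1.51, 0.00764) were among the 8 of the list that were higher.

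Among 26 other positive acute phase genes, 16 were tested in the temporal arm, of which 9 were called higher at 6 h and none lower, beside 10.3% of all genes higher. At 24 h 8 were higher and 2 lower, beside 21.8% of all genes higher and 6986 of 16653 called in either direction. Serpina3n, a protease inhibitor, had 5.89 ± 2.57 CPM in Control, 268 ± 98.3 CPM at 24 h and 31.1 ± 36.4 CPM at 48 h, and the fall from 24 to 48 h was called (-3.10, adjusted p = 0.00194). Of 9 negative acute phase genes, whose plasma proteins fall in an acute phase response, 7 were tested. Of these, 0, 1, 0 and 1 were called higher at 6, 24, 48 and 72 h, beside 10.3%, 21.8%, 26.9% and 26.7% of all genes. Lower calls numbered 1, 2, 5 and 2, beside 26.8% and 29.6% of all genes at 48 and 72 h. At 6 and 24 h, 3139 and 6986 of 16653 genes were called in either direction, 1722 and 3627 of them higher. After sham surgery 2 of 8 were higher (7.7% of all genes) and 2 lower, beside 3703 of 17781 genes called, 1369 of them higher. Ttr, transthyretin, was called lower at 6, 24, 48 and 72 h (-1.75, -2.02, -3.34 and -3.45), and it was also called lower after sham surgery (-1.93). In AKI against Control, 3 of 7 negative acute phase genes tested were called higher (20% of all genes) and 1 lower. Over all 16623 genes, 5821 were called there in either direction, 3317 of them higher.

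Of 18 receptors and partners of the proteins tested, 10, 6, 7 and 6 were called higher at 6, 24, 48 and 72 h, beside 10.3%, 21.8%, 26.9% and 26.7% of all genes. Lower calls numbered 1 at 48 h and 1 at 72 h (26.8% and 29.6% of all genes). Against Control 7 were called higher in AKI (20% of all genes) and 15 in UC-MSC (20.4%). Itgam, a chain of a leukocyte receptor for fibrinogen, was called higher at 6 h (3.63), 24 h (3.94), 48 h (2.69) and 72 h (3.04). Fpr2, a receptor for serum amyloid A that neutrophils carry, was called higher at 6 h (5.15, adjusted p = 0.0163) and in UC-MSC against AKI (3.74, 0.0133). In the clotting and fibrin clearance list, 12 of 21 were called higher and 1 lower at 6 h (10.3% of all genes higher), and 7 higher and 4 lower at 24 h (21.8%). Over all 16653 genes, 3139 and 6986 were called in either direction at these times. The urokinase receptor gene Plaur had 8.12 ± 0.711 CPM in Control and 84.5 ± 10.3 at 24 h. F13b, a subunit of the fibrin-crosslinking factor XIII, was called lower at 24 h (-3.95), 48 h (-4.73) and 72 h (-4.03).

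Over the 20 temporal libraries, the genes most like Saa3 in log2 CPM among 12357 compared were Serpina3n (Pearson r = 0.937), Asns (0.936), Tmem43 (0.929), Lrg1 (0.921) and Pxdc1 (0.914). Those most like the mean of the 3 fibrinogen genes included Ppa1 (0.932), Psmb2 (0.930), Manf (0.905) and Ly6a (0.904). Within the 10 genes, Fgb and Hp had the highest correlation (0.943), and Cp was negatively correlated with Fga (-0.456). These correlations are descriptions over libraries that share group, block and depth differences.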

How the data were processed

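Read counts per gene in 44 library columns of 40 samples were analysed from 3 deposited tables. The deposited values are the authors' raw counts, made with HTSeq on mm39 (GRCm39), with DESeq2 also named, per the submitters' processing notes. The aligner and the use of strand are not given in the sources used here. In the temporal and therapy tables, lines repeated by a join on names were collapsed. In all, 85 names found in either table were left out, 74 of them because their Control counts disagreed. All library columns were used (0 unused).

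One model per arm, holding every group of that arm, was made in edgeR 4.0.16 under R 4.3.3 (glmQLFit, glmQLFTest) after TMM scaling and filterByExpr. The Benjamini-Hochberg threshold was 0.05, two-sided. Each SE of a log2 change was derived from the test, as the absolute change divided by the square root of its F statistic. CPM values are scaled within an arm, so Control values differ slightly between arms. Where a group had no read, folds are bounds against a floor of 3 reads over the group, and counting intervals are exact at 95%. The 10 members and the lists were chosen with earlier results of these data known. All members are named. From each list and comparison, up to 4 called genes with the largest change and up to 2 not called with the highest mean CPM could be named. For likeness these were the 5 highest correlations among expressed genes (mean log2 CPM 1 or more), of which 1 is not reported here. Alternatives were DESeq2 1.42.0, DESeq2 size factors in edgeR, no filter, only the groups compared, each library left out, the replicate number as a block, and IRI 6 h in place of AKI. The fits were tested on simulated data. Python 3.11.15, pandas 2.3.3 and matplotlib 3.10.9 made the tables and figures.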

Additional observations from a re-analysis of the deposited data

Results flagged for a closer look

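Several libraries lay far from the other 3 of their group, by a gap-to-range test that chance passes in about 1 of 20 groups of normally distributed values. A group with reads in a single library always passes it, so such cases carry no weight as outliers. These are Saa1 at 72 h, Saa2 in Control, at 48 h, at 72 h and in sham control, Orm1 at 48 h and Ptx3 at sham 24 h. IRI 48 h library 1 was high for Saa2 (5.16 CPM), Fga (69.6 CPM), Fgg (100.4 CPM) and Hp (355 CPM). IRI 6 h library 1 was high for Saa3 (84.0 CPM), Fga (296 CPM), Fgb (73.8 CPM), Hp (909 CPM) and Ptx3 (23.7 CPM). IRI 24 h library 2 was low for Fga (128.0 CPM) and Fgg (255 CPM). At 72 h, library 4 was high for Saa1 (5.65 CPM), library 2 was high for Saa2 (1.64 CPM) and library 3 was low for Fgb (0.400 CPM). Orm1 was found in library 4 alone at 48 h (1.04 CPM). Saa2 was found in library 1 alone in Control (0.0637 CPM) and in library 4 alone in sham control (0.193 CPM). Ptx3 was high in AKI library 1 (36.0 CPM), BM-MSC library 4 (3.78 CPM), UC-MSC library 3 (92.2 CPM) and sham 24 h library 4 (0.0796 CPM).

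The change at 24 h after IRI exceeded that at 24 h after sham surgery, by the test of the difference itself, for Fga (3.99 on the log2 scale), Fgb (3.999), Fgg (5.38) and Hp (4.40). Saa3 (4.40) and Ptx3 (6.12) passed the filter only with the IRI libraries, so their values are given as a description. The Saa3 call was lost in 11 of the 16 fits that left out a library.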

How the results depend on the processing

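The count of members called moved by over 1.5 times in these cases. With DESeq2 it was 2 for 72 against 48 h, 5 for BM-MSC against AKI and 0 after sham surgery, where edgeR called 2 (Saa1 and Saa2). DESeq2 gave no adjusted p for these 2 or, in the temporal arm, for Fga. Without a filter it was 3 for 72 against 48 h and 6 for BM-MSC against AKI. With only the groups compared it was 3 at 48 h, 7 for 24 against 6 h, 0 for 72 against 48 h and 1 for UC-MSC against AKI. With IRI 6 h in place of AKI it was 0 for BM-MSC. Leaving out 1 library gave 2 to 4 calls at 72 h, 0 to 4 for 24 against 6 h, 0 to 3 for 72 against 48 h, 3 to 5 for BM-MSC against Control, 2 to 5 for BM-MSC against AKI, 2 to 5 for UC-MSC against AKI and 1 to 2 after sham surgery.

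Same-numbered libraries did not deviate together (correlations of -0.137 to 0.0815 in the temporal arm and -0.495 to 0.224 in the therapy arm, over 0.1 in 5 of 24 pairs), so they share only a number. With the replicate block, members called were 0 for 72 against 48 h, 3 for BM-MSC against Control and 2 for UC-MSC against AKI. Signs changed for Orm1 at 72 h (-0.36), Saa3 from 48 to 72 h (0.16) and Fga in UC-MSC against AKI (0.11). Sham columns carry no replicate number, so the block was not run there or in the joint fit.

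Signs also changed without a filter for Fga in UC-MSC against AKI (0.0058). With IRI 6 h in place of AKI they changed for Saa1 (-0.06) and Saa3 (-1.65) in BM-MSC, and for Fga (1.10), Fgb (0.61), Fgg (0.62) and Orm1 (1.35) in UC-MSC. Leaving out 1 library turned signs within these log2 ranges. At 48 h: Saa2 -1.27 to 6.69, Fgb -0.41 to 2.04, Fgg -0.71 to 1.06, Hp -0.21 to 1.83. At 72 h: Saa1 -4.37 to 3.42, Saa2 -1.27 to 5.09, Orm1 -0.82 to 0.56. For 24 against 6 h: Ptx3 -1.42 to 0.21. For 72 against 48 h: Saa1 -6.59 to 1.96, Saa2 -6.72 to 5.15, Saa3 -0.61 to 0.85, Fga -1.67 to 0.84, Fgb -1.15 to 1.30, Hp -1.41 to 0.63, Cp -0.10 to 0.36. For BM-MSC against AKI: Saa1 -0.13 to 0.46, Saa2 -1.08 to 0.26. For UC-MSC against AKI: Fga -0.44 to 0.63, Fgb -1.14 to 0.10, Fgg -0.99 to 0.066. Cp ranged from -0.094 to 0.25 for UC-MSC against BM-MSC and from -0.042 to 0.22 after sham surgery. The cause was not tested.

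Over all genes, calls for 72 against 48 h were 943 as reported, 1703 with DESeq2, 499 with the block and 24 with only the groups compared. With only the groups compared they were 7445 at 6 h (3139 as reported), 11567 at 24 h (6986), 8278 for 24 against 6 h (4801), 4969 for BM-MSC against Control (1484), 3640 for BM-MSC against AKI (5551) and 3537 for UC-MSC against AKI (6729). DESeq2 called 2390 for BM-MSC against Control. Leaving out 1 library gave as few as 582 for BM-MSC against Control and 1947 for UC-MSC against BM-MSC (3401 as reported). With IRI 6 h in place of AKI, 423 were called in BM-MSC and 3809 in UC-MSC. At 48 or 72 h, in libraries of 4642929 to 7021350 counts, Saa1, Saa2, Saa3, Fgb, Orm1 and Ptx3 had libraries without a read. Whether depth set this was not tested.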
